A study of Mus musculus with 9 samples.

Results

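The promoter of Nppa was examined by targeted bisulfite sequencing in 9 libraries of embryonic mouse cardiomyocytes. The gene symbol is written NPPA in some of the deposited region names, and 2 amplified regions, Nppa_1 and Nppa_2, carry it. Members were the CpG sites of these regions with a coverage of at least 30 reads in all 9 libraries, and no methylation value entered that choice. All 17 CpGs listed for the gene met it, 11 in Nppa_1 and 6 in Nppa_2, among 310 CpGs that met it over the 26 regions of the whole experiment. Each was covered by 1395 to 65470 reads in every library. Every cell population came from pooled ventricles of CD-1 embryos at embryonic day 13.5, was cultured for 48 h, was transfected with 0.012 pmol of siRNA and was collected 72 h later by magnetic sorting on VCAM1, a surface protein of cardiomyocytes. The groups were negative siRNA (a non-targeting control), DNMT3a siRNA and DNMT3b siRNA, each targeting siRNA being a pool of 4, with 3 libraries per group. The design asks whether lowering either de novo DNA methyltransferase changes methylation at cardiac promoters. How far each siRNA lowered its target was not analysed here, and a purely DNA-based measurement gives no marker of cell type to check the sort. Ventricles were pooled within a litter, and the labels do not say whether replicate libraries came from separate cultures, so p-values measure the spread between these libraries, which may be technical.

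Nppa encodes atrial natriuretic peptide, a hormone that heart muscle cells release and that promotes the excretion of salt and water. The gene is active in the embryonic atria and ventricles, is largely silenced in the ventricle after birth, and is known for its return in hypertrophy. GATA4, Nkx2-5 and Tbx5 are cardiac transcription factors known to act on its promoter. DNMT3A and DNMT3B are the enzymes that place methyl groups on unmethylated CpGs, and promoters of active genes usually carry little methylation near the transcription start. Bisulfite converts unmethylated cytosine so that it is read as T, and the methylation level of a CpG is the percent of its reads that still carry C.

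Nppa (gene ID 230899) lies on the plus strand of chromosome 4 from 148000722 to 148002074 in GRCm38.p6, the assembly to which mm10 corresponds. The files give offsets within each region and no coordinates, so the regions were placed by matching the 3-base context of each listed cytosine to the RefSeq promoter window. In Nppa_1, 55 of 55 cytosines within the window matched, which put its 110 listed cytosines between 148000521 and 148000962. In Nppa_2, 18 of 18 matched, and its 110 listed cytosines ran from 148000192 to 148000566, wholly upstream of the gene. The ends of the regions overlap, but no CpG is shared. Sites outside the window were placed by carrying the offset on, which assumes no insertion or deletion. Positions below are counted from the first base of the annotated gene, taken as 0. The annotation table gives the gene span without exons, so sites downstream of the start are described only as within the gene.

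The stretch just upstream of the start is shown because it holds the 5 upstream CpGs of Nppa_1, among them the pair with the widest ranges between libraries. It is the RefSeq sequence of chr4:148000472-148000721, 5′ to 3′ on the plus strand, with the cytosine and guanine of each CpG in capitals. The last capital C pairs with the first base of the gene to form the CpG at offset 203.
Nppa upstream stretch: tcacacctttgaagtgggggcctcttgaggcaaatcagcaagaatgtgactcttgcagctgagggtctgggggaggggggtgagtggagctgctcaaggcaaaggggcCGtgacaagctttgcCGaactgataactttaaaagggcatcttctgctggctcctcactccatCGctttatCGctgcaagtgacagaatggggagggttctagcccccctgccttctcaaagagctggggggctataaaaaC
The 5 CpGs are set side by side below, each in 25 bases with the CpG itself in capitals.
Offset 62, 142 bases upstream: aggcaaaggggcCGtgacaagcttt
Offset 77, 127 bases upstream: gacaagctttgcCGaactgataact
Offset 125, 79 bases upstream: tcctcactccatCGctttatcgctg
Offset 133, 71 bases upstream: ccatcgctttatCGctgcaagtgac
Offset 203, 1 base upstream: gggctataaaaaCGggagatgctgg

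The 250-base stretch held 4 whole CpGs, against a median of 6 in the equivalent stretches of 32851 RefSeq promoters, of which 37.8% held fewer than 4. Motifs of cardiac factors were looked for on both strands. GATA, the core bound by GATA factors, was found 121 to 118 bases upstream, 4 bases from the CpG at offset 77, and on the minus strand 74 to 71 bases upstream, where it takes in the cytosine of the CpG at offset 133. A match to GATA occurs in 53.6% of all promoter stretches. AAGTG, of the Nkx2-5 type, was found 239 to 235 and 65 to 61 bases upstream and occurs in 40.7% of stretches. The second of these overlaps 1 of the 2 E-box matches (CANNTG, present in 66.2% of stretches). AGGTGT, of the T-box type, had 1 match on the minus strand 248 to 243 bases upstream, and 11.8% of stretches have 1 or more. TATAAA, looked for after the sequence had been seen, lay 9 to 4 bases upstream, 2 bases from the CpG at offset 203, and occurs in 12.4% of stretches. TGACGTCA, the cyclic AMP response element, and the CArG box had 0 matches in these letters, against 1.55% and 1.47% of stretches. These are matches of letters, not measured binding.

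Summed coverage was similar between libraries, at 27193672 to 32543683 cytosine calls. Unconverted non-CpG cytosines of the Nppa regions averaged 0.185% ± 0.0298 (SD, n = 3) in negative siRNA, 0.177% ± 0.0237 (SD, n = 3) in DNMT3a siRNA and 0.172% ± 0.00331 (SD, n = 3) in DNMT3b siRNA. These values were far below the levels at the Nppa CpGs other than offset 32 of Nppa_2. That CpG came nearer to them, with a lowest level of 0.639% in DNMT3b siRNA 3. Reads of a PCR product carry no molecular identifiers and may repeat a molecule, so read depth bounds counting error only. A pair of libraries stood apart. Negative siRNA 2 and DNMT3a siRNA 3, which belong to different groups, deviated from their group means in the same direction across the 177 CpGs between 2% and 98% (r = 0.794, described without a test). This was the highest r of any 2 libraries from different groups, and the pair was singled out after seeing the data. Joint deviation was not confined to it: the replicate 1 libraries of the 3 groups correlated pairwise at 0.536, 0.406 and 0.356. In the group comparisons, main results that change without negative siRNA 2 and DNMT3a siRNA 3 are given with and without them.

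The Nppa promoter was sparsely methylated far upstream and densely methylated inside the gene. Over the 9 libraries, the 6 CpGs of Nppa_2, 505 to 288 bases upstream, had mean levels of 2.74% to 13.8%. In Nppa_1 the CpGs at 142 and 127 bases upstream averaged 9.38% and 13.5%. The neighbouring pair at 79 and 71 bases upstream, the second of which lies in a GATA match, stood higher at 38.9% and 34.3%. At the CpG that spans the start, offset 203, the mean level was 13.8%, below the levels of the CpGs on either side of it. Past the start the level was 37.4% at base 29, between 51.8% and 61.4% at the 4 CpGs from base 92 to base 148, and 90.0% at base 201 (offset 405). That last CpG was also the steadiest of the 17, at 87.9% to 91.1% in the 9 libraries.

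**Figure D1:**
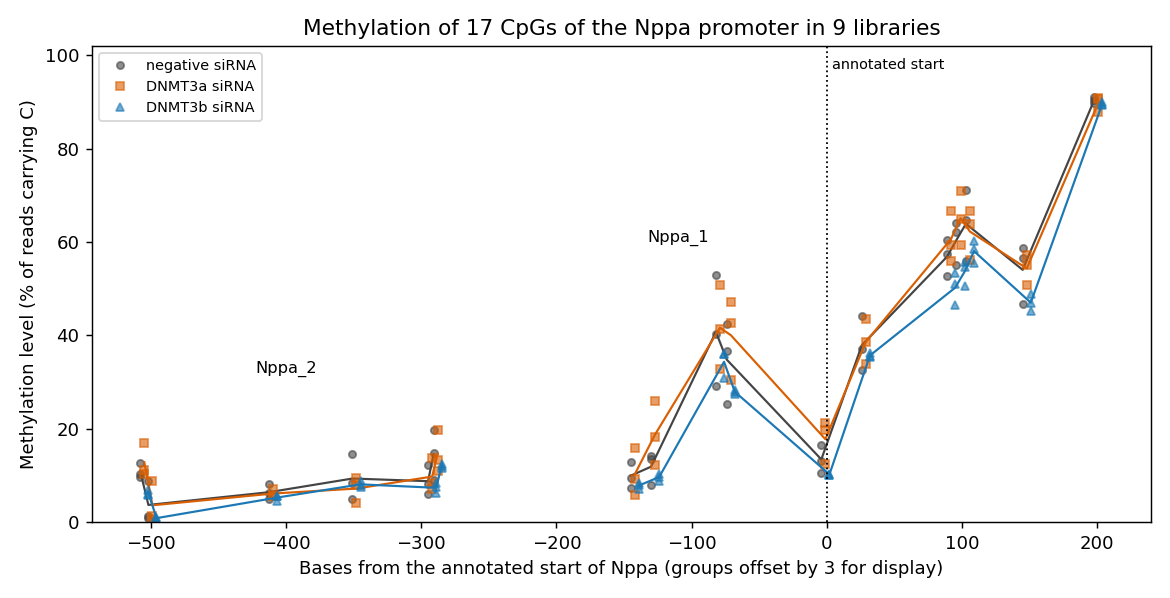
Methylation level (percent of reads carrying C, y axis) of the 17 Nppa CpGs against their distance in bases from the annotated start (x axis); points are the 3 libraries of each group, drawn 3 bases apart for display, and lines join group means within a region. Levels stay under 20% in Nppa_2, dip at the CpG spanning the start and reach about 90.0% at base 201 in all 3 groups.

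Nppa_1 was more methylated than Nppa_2 in 9 of 9 libraries. The region level, the mean over its CpGs, was 42.4% ± 4.77 (SD, n = 9) in Nppa_1 and 8.22% ± 1.88 (SD, n = 9) in Nppa_2. The difference within a library was 34.2 points ± 3.23 (SD, n = 9), with a range of 30.3 to 39.3 (exact two-sided sign-flip permutation p = 0.00391, the smallest that 9 libraries can give). Within Nppa_1, the 5 upstream CpGs averaged 22.0% ± 5.50 (SD, n = 9) and the 6 CpGs inside the gene 59.4% ± 4.24 (SD, n = 9). The gap of 37.4 points ± 1.81 (SD, n = 9) varied less between libraries than either side did. Only 2 other placed regions had at least 2 CpGs on each side of a start. In Tnni3_1, of the cardiac troponin I gene, the downstream side exceeded the upstream side by 11.9 points ± 2.44 (SD, n = 9), and in Camta2_1 the difference was -0.0976 points ± 0.114 (SD, n = 9).

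Between groups, the level of the Nppa regions was lowest with DNMT3b siRNA, but the libraries of the other groups were widely spread. In Nppa_1, negative siRNA 1, 2 and 3 measured 44.8%, 37.6% and 47.0%. DNMT3a siRNA 1, 2 and 3 measured 45.8%, 50.6% and 39.8%, and DNMT3b siRNA 1, 2 and 3 measured 39.3%, 39.1% and 37.3%. Negative siRNA 2 thus fell among the DNMT3b libraries, while all 3 DNMT3a libraries were above them. In Nppa_2, negative siRNA gave 8.23%, 7.26% and 11.4%, DNMT3a siRNA 7.99%, 11.3% and 7.84%, and DNMT3b siRNA 6.99%, 6.92% and 6.08%. Here the DNMT3b libraries were below every other library, but only with offset 32 included, a CpG that is high in negative siRNA 2 and DNMT3a siRNA 3 and is described further on. Over the other 5 CpGs of Nppa_2, negative siRNA 2 measured 6.92%, below the 8.21%, 8.09% and 7.17% of the DNMT3b libraries, and DNMT3a siRNA 3 measured 7.62%, among them. The 3 comparisons between groups share libraries pairwise and are not independent of each other.

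**Figure D2:**
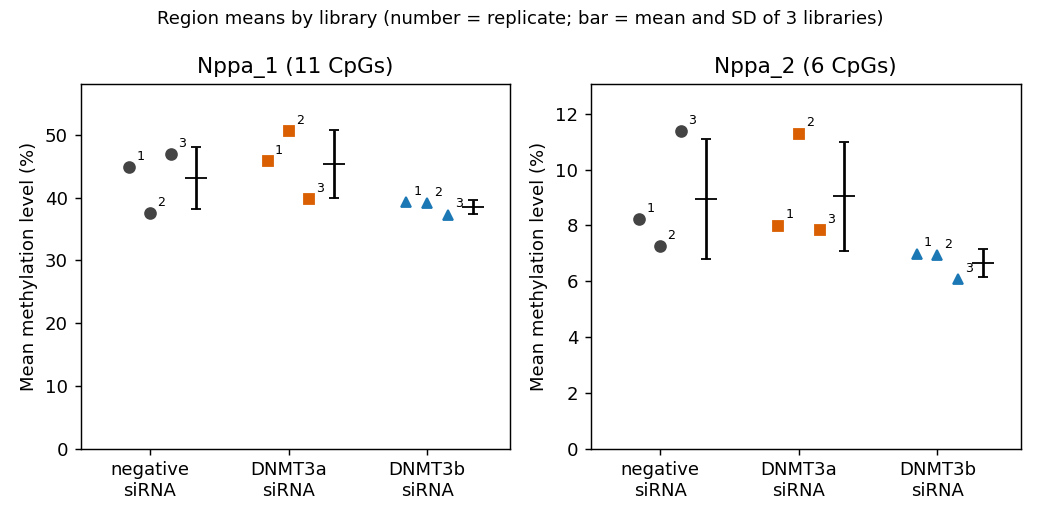
Mean methylation level (%) of Nppa_1 (left, 11 CpGs) and Nppa_2 (right, 6 CpGs) in each library, numbered by replicate, with the mean and SD of the 3 libraries of each group beside them. The y axes differ in scale; DNMT3b siRNA libraries lie close together, at 37.3% to 39.3% in Nppa_1 and 6.08% to 6.99% in Nppa_2.

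DNMT3a siRNA did not separate from negative siRNA at the Nppa promoter. The Nppa_1 mean was 45.4% ± 5.41 (SD, n = 3) against 43.1% ± 4.92 (SD, n = 3), higher by 2.26 points (p = 0.6 by an exact permutation test, two-sided; 3 against 3 libraries cannot give less than 0.10). For Nppa_2 the means were 9.04% ± 1.95 and 8.95% ± 2.15 (SD, n = 3 each), a difference of 0.0865 points (exact permutation p = 1). Neither region was without overlap, against 23.1% of the 26 regions. Summed reads gave log2 odds ratios of 0.24 ± 0.26 (SE) for Nppa_1 and -0.01 ± 0.28 (SE) for Nppa_2 (edgeR adjusted p = 0.651 and 0.978), so for Nppa_2 the sign of the odds ratio differs from that of the mean. The sign of the Nppa_1 mean difference hung on single libraries: it was -0.517 points without negative siRNA 2 and -0.340 points without DNMT3a siRNA 2. Without both negative siRNA 2 and DNMT3a siRNA 3 it was 2.29 points. The Nppa_1 log2 odds ratio kept its sign when 1 library was left out, but ranged from 0.0025 to 0.47.

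At single CpGs, 12 of 17 had a higher mean with DNMT3a siRNA and 5 a lower one, whereas 188 of all 310 CpGs were lower. The median difference was 0.732 points over the Nppa CpGs and -0.0944 points over all 310. None of the 17 was called by edgeR at an adjusted p under 0.05 (their adjusted p ran from 0.433 to 0.984), and 0% of the 310 were. None had groups without overlap, against 15.2% of the 310, and none had an unadjusted p under 0.05, against 12.6%. The smallest p belonged to offset 77, near the upstream GATA match. Its levels were 14.2%, 7.98% and 13.5% with negative siRNA and 18.3%, 25.97% and 12.2% with DNMT3a siRNA. DNMT3a siRNA 3 lay within the control range, and the log2 odds ratio was 0.76 ± 0.36 (SE; edgeR adjusted p = 0.433). The next was offset 203, at the start, with a log2 odds ratio of 0.47 ± 0.26 (SE; edgeR adjusted p = 0.531). The direction over the CpGs was not stable: 10 of 17 were lower without negative siRNA 2 and 11 without DNMT3a siRNA 2, while 15 of 17 were higher without negative siRNA 3 and 14 without DNMT3a siRNA 3. Without DNMT3a siRNA 3, 4 of 17 did not overlap, against 25.8% of all CpGs. Without both negative siRNA 2 and DNMT3a siRNA 3, 8 were lower and 9 higher, and 4 did not overlap, against 34.2% of all CpGs.

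DNMT3b siRNA gave a lower mean level than negative siRNA at all 17 Nppa CpGs, but no difference passed the test. Among all 310 CpGs, 213 were lower, and the median difference was -2.82 points over the Nppa CpGs and -0.242 points over all. These CpGs lie on 2 amplicons and share molecules and libraries, so they are not 17 separate observations. Groups did not overlap at 2 of the 17, both lower, against 20.6% of all CpGs, and 1 had an unadjusted edgeR p under 0.05, against 11.0%. The edgeR test called 0 of 17 and 0% of 310 after adjustment, the adjusted p of the 17 running from 0.441 to 0.956.

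The count of lower CpGs leaned on negative siRNA 3, the control library with the highest Nppa level. Without it, 13 of 17 were lower and 3 did not overlap (32.3% of all CpGs then did not overlap). Without negative siRNA 2, the control with the lowest level, 17 of 17 were lower and 14 did not overlap, against 33.5% of all CpGs. Leaving out the lowest control widens this difference by construction, and that library was singled out after seeing the data. With all libraries, the Nppa_1 mean of DNMT3b siRNA was 38.6% ± 1.11 (SD, n = 3), which is 4.56 points below the control mean (exact two-sided permutation p = 0.3). The Nppa_2 mean was 6.67% ± 0.504 (SD, n = 3), which is 2.29 points below it without overlap of the libraries (exact permutation p = 0.10, the smallest possible), and 19.2% of the 26 regions did not overlap in this comparison. That separation was lost without offset 32 (-2.18 points, exact permutation p = 0.4) and with reads pooled over the region (-1.69 points, exact permutation p = 0.5). Log2 odds ratios were -0.18 ± 0.26 (SE) for Nppa_1 and -0.27 ± 0.28 (SE) for Nppa_2 (edgeR adjusted p = 0.654 and 0.562). Without negative siRNA 2 and DNMT3a siRNA 3 they were -0.42 ± 0.16 (SE) and -0.52 ± 0.23 (SE), with edgeR adjusted p of 0.300 and 0.326. The mean differences were then -7.34 points in Nppa_1 and -3.14 points in Nppa_2 (exact permutation p = 0.2 for both).

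The most distal CpG, offset 26 of Nppa_2 (505 bases upstream, 1395 to 2119 reads), had the smallest p of this comparison. It measured 10.4%, 9.62% and 12.6% with negative siRNA and 6.97%, 6.04% and 5.84% with DNMT3b siRNA, so every DNMT3b library was below every control. Its log2 odds ratio was -0.86 ± 0.24 (SE; edgeR adjusted p = 0.441). Next came offset 352 of Nppa_1, 148 bases inside the gene. Controls there measured 58.7%, 46.8% and 56.6% and DNMT3b libraries 48.9%, 45.3% and 46.9%. Negative siRNA 2 lay among the DNMT3b libraries (log2 odds ratio -0.41 ± 0.23, SE; edgeR adjusted p = 0.533). The other CpG without overlap was offset 203, at 16.6%, 10.6% and 13.1% in controls and 10.2%, 10.4% and 10.2% with DNMT3b siRNA.

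The widest separation was between the 2 knockdown groups. DNMT3a siRNA was above DNMT3b siRNA by 6.82 points in Nppa_1 and 2.37 points in Nppa_2, without overlap of the 3 and 3 libraries in either region (exact two-sided permutation p = 0.10 for both, the smallest possible), against 15.4% of the 26 regions. With reads pooled over the region the libraries overlapped in both, with differences of 6.77 points in Nppa_1 (exact permutation p = 0.3) and 1.51 points in Nppa_2 (exact permutation p = 0.4). Without offset 32 those of Nppa_2 overlapped as well (2.30 points, exact permutation p = 0.3). The log2 odds ratios were 0.42 ± 0.26 (SE) and 0.26 ± 0.28 (SE), with edgeR adjusted p of 0.515 and 0.588. At 16 of the 17 CpGs the DNMT3a mean was the higher, against 181 of 310, and the median difference was 4.19 points against 0.0689 points over all. Groups did not overlap at 7 of the 17, all higher with DNMT3a siRNA, beside 13.5% of all CpGs. An unadjusted edgeR p under 0.05 was found at 6 of the 17, beside 7.42% of all. After adjustment edgeR called 0 of 17 and 0% of 310, with adjusted p from 0.173 to 0.941 over the 17.

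**Figure D3:**
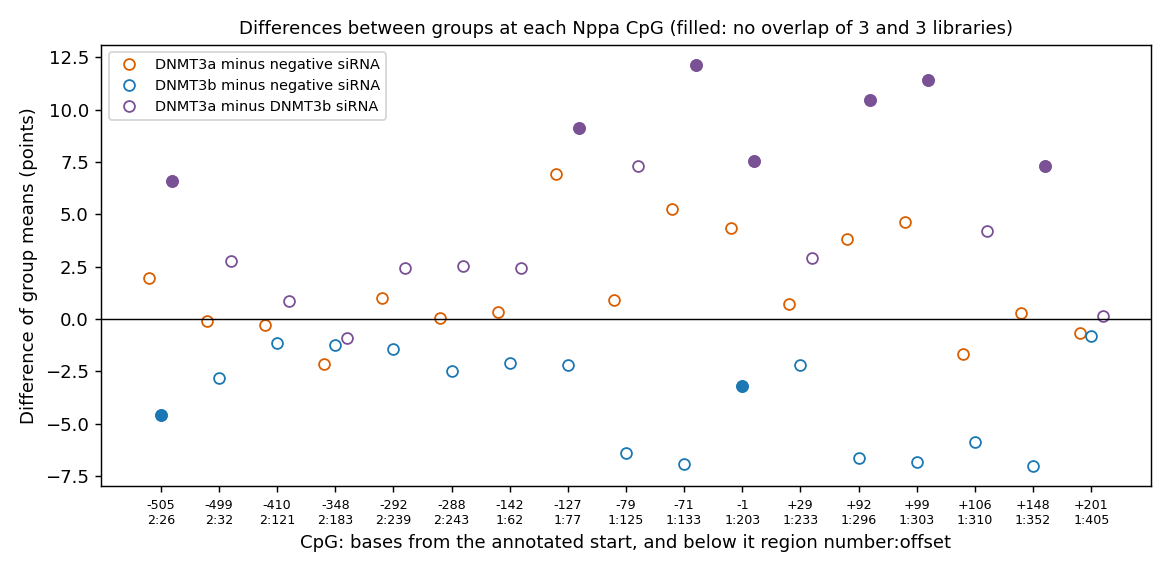
Difference of group means in percentage points (y axis) at each of the 17 Nppa CpGs, ordered by bases from the annotated start (x axis, region number and offset below), for the 3 comparisons; filled circles mark groups of 3 and 3 libraries that do not overlap. DNMT3b minus negative siRNA is below 0 at 17 of 17 CpGs, and 7 filled circles belong to DNMT3a minus DNMT3b siRNA.

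Offset 26 of Nppa_2 again had the smallest p. DNMT3a siRNA measured 11.2%, 17.03% and 10.4% there, all above the DNMT3b libraries given above, and the log2 odds ratio was 1.10 ± 0.24 (SE; edgeR adjusted p = 0.173). DESeq2 called this CpG, with an adjusted p of 0.00665, as 1 of 7 called among all 310 CpGs. It was not called by limma (limma adjusted p = 0.249). Offset 203, the CpG at the start, measured 19.7%, 21.2% and 12.5% with DNMT3a siRNA, each above the 10.2% to 10.4% of the DNMT3b libraries (log2 odds ratio 0.89 ± 0.26, SE; edgeR adjusted p = 0.341). The other CpGs without overlap were offsets 77, 133, 296, 303 and 352 of Nppa_1. Only offset 183 of Nppa_2 had a lower mean with DNMT3a siRNA, 7.21% ± 2.79 against 8.11% ± 0.742 (SD, n = 3 each). When negative siRNA 2 and DNMT3a siRNA 3 were both left out, an alternative chosen after seeing the data, all 17 CpGs were higher and 15 did not overlap, against 26.1% of all CpGs. With 7 libraries, edgeR then called 5 of the 310 CpGs, of which 3 were offsets 77, 133 and 203 of Nppa_1. It also called the Nppa_1 region (log2 odds ratio 0.65 ± 0.16, SE; edgeR adjusted p = 0.0438). DNMT3a siRNA 3 had the lowest Nppa_1 level of its group, so leaving it out widens this difference by construction. Without it alone, edgeR called 0 CpGs, and Nppa_1 had a log2 odds ratio of 0.65 ± 0.24 (SE; edgeR adjusted p = 0.183). Negative siRNA 2 is not in this comparison, and leaving it out as well lowered the SE without changing the odds ratio.

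Levels varied much more between libraries than read counts account for. The SD within a group was a median of 11.0 times the counting SD over the 51 combinations of CpG and group, and was above it in 49 of them. The median SD of a Nppa CpG was 4.53 points in negative siRNA, 4.65 points in DNMT3a siRNA and 0.730 points in DNMT3b siRNA, and DNMT3b siRNA had the smallest SD at 17 of 17 CpGs. Over the 177 CpGs between 2% and 98% in the whole experiment the medians were 2.19, 2.85 and 1.31 points. Negative siRNA 2 and DNMT3a siRNA 3 belong to the groups with the wider spread, and the count of 17 was not redone without them. Without them it would not hold at every CpG. At offset 77, negative siRNA 1 and 3 measured 14.2% and 13.5%, closer together than the DNMT3b libraries at 9.77%, 10.4% and 8.91%. The 17 CpGs share libraries, and the same count over all CpGs was not made.

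The CpGs with the widest ranges over the 9 libraries were the upstream pair and 1 CpG inside the gene. Offset 125 measured 40.2%, 29.2% and 52.9% with negative siRNA, 41.4%, 50.7% and 32.8% with DNMT3a siRNA and 36.0%, 36.1% and 30.9% with DNMT3b siRNA, a range of 23.7 points. Offset 133, in the GATA match, measured 36.8%, 25.3% and 42.4%, then 42.6%, 47.2% and 30.5%, then 27.5%, 28.0% and 28.3% in the same order, a range of 21.8 points. Both CpGs had their lowest level in negative siRNA 2. Offset 303 measured 64.0%, 55.2% and 62.1%, then 65.0%, 70.9% and 59.3%, then 55.8%, 54.6% and 50.5%, a range of 20.4 points. The median range was 11.2 points over the 17 CpGs and 9.28 points over the 177.

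The CpGs of Nppa_1 varied together from library to library. Over the 9 libraries, which the points share, the 55 pairs of Nppa_1 CpGs had correlations of 0.466 to 0.980 with a median of 0.780. DNMT3a siRNA 2 was the highest library at 8 of the 17 CpGs and negative siRNA 3 at 6. The lowest was DNMT3b siRNA 3 at 6 CpGs and negative siRNA 2 at another 6. The region levels of Nppa_1 and Nppa_2 correlated at 0.885.

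Offset 32 of Nppa_2, 499 bases upstream and 6 bases from offset 26, was the exception. It measured 1.26%, 8.93% and 0.910% with negative siRNA, 1.25%, 0.713% and 8.92% with DNMT3a siRNA and 0.889%, 1.10% and 0.639% with DNMT3b siRNA, at 2062 to 3172 reads. The high libraries were negative siRNA 2 and DNMT3a siRNA 3, the pair that deviated together elsewhere, and the other 7 stayed between 0.639% and 1.26%. The labels tie no library to a litter, and whether the DNA of these libraries differs in sequence at this CpG, which would change what its percent of C means, was not tested. Of the 310 CpGs this was the only 1 at which both stood above all 7 others, while both stood below all others at 12 CpGs (3.87%). Of these, 3 were in Nppa, and others were in Nppb, so the joint lowering was not particular to Nppa. The gap to the nearest other library was widest in Nppb, at 3.91 points, against at most 2.48 points in Nppa. In the remaining genes it was at most 0.219 points. The correlation of offset 32 with each of the other 16 Nppa CpGs over 9 libraries was negative, from -0.707 to -0.00669. The high level belonged to 1 library each of 2 groups, so the group means of 3.70% ± 4.53 with negative siRNA and 3.63% ± 4.59 with DNMT3a siRNA (SD, n = 3 each) lie away from all of their libraries. With DNMT3b siRNA the mean was 0.877% ± 0.232 (SD, n = 3).

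**Figure D4:**
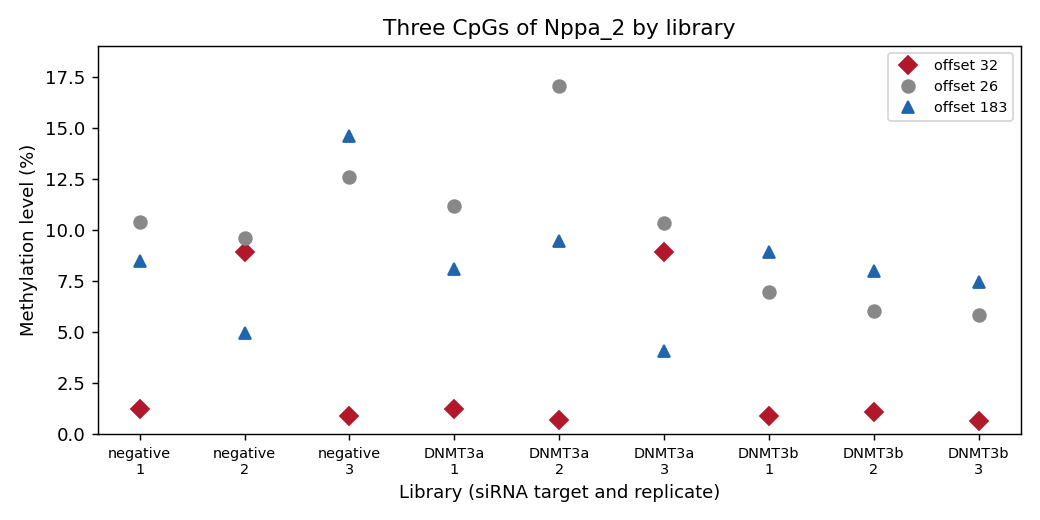
Methylation level (%, y axis) of 3 CpGs of Nppa_2, at offsets 26, 32 and 183, in each of the 9 libraries (x axis). Offset 32 stands at 8.93% in negative siRNA 2 and 8.92% in DNMT3a siRNA 3 and at or under 1.26% in the other 7, whereas offset 183 is lowest in those same libraries.

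Among the 24 tested regions of other genes, those whose level over the 9 libraries was most like that of Nppa_1 were Nppb_2 (Pearson r = 0.880), Nppb_1 (0.858) and Myh7b_1 (0.785), given as a description of libraries that all regions share. Nppb, which encodes brain natriuretic peptide, lies upstream of Nppa on the same chromosome (147985786 to 147987205). For Nppa_2 they were Tnnc1_1 (0.827), of cardiac troponin C, Camta2_2 (0.736) and Nppb_1 (0.733), with Nppb_2 at 0.663. The levels of Nppb_2 were 56.5% ± 4.56 with negative siRNA, 62.6% ± 4.33 with DNMT3a siRNA and 53.1% ± 2.45 with DNMT3b siRNA (SD, n = 3 each), the same order of group means as in Nppa_1. Nppb_1 was sparsely methylated, at 4.32% ± 0.763, 4.39% ± 0.711 and 4.07% ± 0.0693 (SD, n = 3 each).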

How the data were processed

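Promoter methylation was measured by bisulfite amplicon sequencing on a MiSeq in 9 libraries. The submitters' processing notes name FastQC, Bismark, Bowtie2 and the build mm10; their versions are not given in the sources used here. Per the file headers, each deposited cytosine has a coverage, which is a count of reads, and a percent of C and of T among them. Methylated counts were recovered as coverage times percent, and all 23884 values came out whole within 0.01 reads.

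The quasi-likelihood test of edgeR 4.0.16 (R 4.3.3) was run on methylated against unmethylated counts of sites and of regions, with a coefficient per library, all 9 libraries in 1 fit and Benjamini-Hochberg adjustment over 310 sites or 26 regions. A call needed an adjusted p under 0.05. Region means were compared by exact permutation. Test values are given for the 2 Nppa CpGs with the smallest p per comparison, and wide variation for the 3 with the widest range. Likeness is shown for the 3 nearest regions of other genes and for Nppb, and motifs came from a set list plus TATAAA. Offset 32 and the remaining CpGs without overlap were singled out after their values were seen. Alternatives were limma 3.58.1, DESeq2 1.42.0, coverage minimums of 10 and 100, other filters, a replicate block and leaving out libraries. Members and lists were chosen with earlier results of these data known.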

Additional observations from a re-analysis of the deposited data

How the results depend on the processing

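The gap between Nppa_1 and Nppa_2 kept its direction, at 33.5 to 34.6 points when single libraries were left out, 35.0 points without negative siRNA 2 and DNMT3a siRNA 3, 33.1 points without offset 32 and 26.8 points with reads pooled over each region. In DNMT3a siRNA against negative siRNA, DESeq2 called 4 of all 310 CpGs, none in Nppa. The edgeR fit restricted to the 177 sites between 2% and 98% called 2 of these sites, again none in Nppa. In DNMT3a against DNMT3b siRNA, DESeq2 called 7. The fit without negative siRNA 2 and DNMT3a siRNA 3 (added after seeing the data) called 5, with a Nppa_1 log2 odds ratio of 0.65. Leaving out either of these libraries alone called 0. The Nppa_2 mean difference of DNMT3a against negative siRNA was -0.181 points with pooled reads and -0.161 points without those 2 libraries; the cause was not tested.

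Leaving out 1 library at a time, the log2 odds ratio ranged from -0.26 to 0.26 for Nppa_2 in DNMT3a against negative siRNA, from -0.42 to 0.014 for Nppa_1 and from -0.52 to 0.0027 for Nppa_2 in DNMT3b against negative siRNA, both highest without negative siRNA 3. The mean difference of DNMT3a against negative siRNA ranged from -0.517 to 5.06 points in Nppa_1 and from -1.04 to 1.30 points in Nppa_2. For DNMT3b against negative siRNA it ranged from -7.34 to -2.64 and from -3.14 to -1.08 points, and for DNMT3a against DNMT3b siRNA from 4.22 to 9.62 and from 1.25 to 2.98 points.

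The labels number replicates 1 to 3 in each group, but the deviations of same-numbered libraries correlated at -0.239 to 0.536, with 7 of 9 pairs over 0.1, against -0.608 to 0.794 and 5 of 18 for other pairs. The same-numbered pairs not over 0.1 were negative siRNA 2 with DNMT3a siRNA 2 (-0.155) and negative siRNA 3 with DNMT3a siRNA 3 (-0.239). Each holds 1 of the 2 libraries that stood apart. Deviations were taken from group means, so those of a group cancel out at each CpG and the correlations are not free of each other. The high correlation between those 2 libraries pushes their correlations with other libraries down by construction. The counts of pairs over 0.1 are tied in the same way and decide nothing about pairing. The labels give the numbers no meaning, so same-numbered libraries were not taken as pairs in the main results. Whether they share a source was not tested. With the replicate block, limma called 0 CpGs in each comparison, and offset 26 of Nppa_2 in DNMT3a against DNMT3b siRNA had a log2 odds ratio of 1.09 (limma adjusted p = 0.479). The SD between libraries was far above counting error from reads, and the number of input molecules is not known.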
